A study of Mus musculus with 22 samples.

Results

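Expression of 8 genes for receptors of natural killer (NK) cells was followed in mouse tumours treated with an interleukin-12 fusion protein, with an antibody against PD-L1, or with both. The genes were the killer cell lectin-like receptors Klrk1, Klrd1, Klrc1, Klrb1c, Klra2, Klra5 and Klra6, together with Ncr1. They were taken by name from the 770 genes of the NanoString table, with earlier results of these data known. All 8 were among the 750 genes tested after 20 housekeeping genes were set aside. EMT-6, a mouse mammary carcinoma line, was implanted orthotopically in BALB/c mice, in the mammary fat pad, and treatment began at a volume near 100 mm3 (day 0). All tumours were collected at day 6. NHS-muIL12 joins murine interleukin-12 to an antibody that binds DNA and histones exposed in necrotic tissue, and it was given subcutaneously on day 0 at 2 or 10 µg. Avelumab was injected into a vein at 200 µg on days 0, 3 and 6. There were 4 isotype control mice that received neither agent, 4 mice with NHS-muIL12 2 µg, 3 with NHS-muIL12 10 µg and 3 with avelumab alone. The groups with both agents, 200 µg avelumab and either 2 or 10 µg NHS-muIL12, held 4 mice each and carry the names combination 2 µg and combination 10 µg. Each group has 4 mice in the series text, and mice beyond these 22 were not analysed here. The RNA came from whole tumours of 1 implanted cell line, so that fewer cells of a type and less RNA per cell cannot be told apart. The labels used here give no age of the mice.

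NK cells weigh signals from activating receptors, which recognise stressed or infected cells, against signals from inhibitory receptors, which recognise class I MHC molecules. Klrk1 encodes NKG2D, an activating receptor that is also carried by CD8+ T cells, and Ncr1 encodes NKp46, an activating receptor used as a marker of NK cells and related innate lymphoid cells. Klrd1 encodes CD94, which pairs with NKG2A, the inhibitory receptor encoded by Klrc1, to bind the class I molecule Qa-1. Klrb1c encodes NK1.1, an activating receptor of the NKR-P1 family. Klra2, Klra5 and Klra6 encode Ly49B, Ly49E and Ly49F, of the Ly49 family. Ly49B is known in mice from myeloid cells rather than NK cells. Interleukin-12 activates NK cells and T cells and induces interferon gamma. The Ly49 genes are close in sequence and their number differs between mouse strains, so that signal for Klra5 and Klra6 could include signal of relatives, which was not tested because probe sequences were not used here.

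The 7 killer cell lectin-like receptor genes lie on mouse chromosome 6 and Ncr1 on chromosome 7. Promoters are shown for Klrk1 and Klra2, which both passed the test against isotype in 3 of the 5 treated groups. They run from 250 bases before to 50 bases after the start site, 5′ to 3′ on the minus strand, from RefSeq on GRCm38.p6, a C57BL/6J genome and not that of the BALB/c mice used here. The Klrk1 promoter lies at chr6:129623815-129624114 and the Klra2 promoter at chr6:131247313-131247612. Capitals mark the 1 match to TTCNNNGAA, the spaced palindrome that STAT proteins bind, which reads the same on both strands.
Klrk1: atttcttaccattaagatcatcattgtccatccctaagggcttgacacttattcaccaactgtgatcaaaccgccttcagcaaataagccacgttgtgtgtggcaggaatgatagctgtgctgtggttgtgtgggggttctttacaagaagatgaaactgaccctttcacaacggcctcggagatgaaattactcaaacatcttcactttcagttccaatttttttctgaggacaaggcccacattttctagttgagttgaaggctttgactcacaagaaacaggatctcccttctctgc
Klra2: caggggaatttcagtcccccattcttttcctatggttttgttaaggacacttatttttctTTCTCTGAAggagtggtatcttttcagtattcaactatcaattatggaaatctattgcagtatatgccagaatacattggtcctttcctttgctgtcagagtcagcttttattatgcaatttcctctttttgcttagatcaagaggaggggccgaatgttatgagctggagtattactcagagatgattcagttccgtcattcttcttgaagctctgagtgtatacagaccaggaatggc
Promoters of 7 members were in the table, and those of the other 6, Klrk1 among them, held no match. TTCNNNGAA was found in 2726 of 32851 mouse promoters of the same 300 bases, or 8.30%. The T-box-like motif TNACACCT, or AGGTGTNA on the other strand, was found in none of the members and in 3.03% of all promoters. These counts describe letters in a window and say nothing about binding.

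Libraries had total signals of 300174 to 511105 and a mean log2 signal of the housekeeping genes of 8.79 to 8.91. They stood apart at their dim end. The lower quartile of signal reached 39.1 and 43.0 for replicates 1 and 2 of isotype, 51.5 for replicate 3 of NHS-muIL12 2 µg and 33.3 for replicate 3 of NHS-muIL12 10 µg, against 3.36 to 20.9 in the other libraries. These are called raised-floor libraries here, and since 2 of them are isotype controls, results are also given without them. Depth is unknown beyond the size of 1 count, which was worth 0.664 to 1.68 units of signal. Differences between probes in signal cannot be read as differences between genes in expression, and only changes of the same probe are compared.

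Klrk1 rose with NHS-muIL12, and it had the largest log2 rise of the 8 genes in each group given NHS-muIL12. In the 4 isotype tumours, in order of replicate as in all lists of values here, its signal was 3.03, 4.66, 1.84 and 9.48. With NHS-muIL12 2 µg it was 53.4, 21.7, 6.58 and 19.5, and with 10 µg it was 51.1, 68.2 and 50.02. All 3 mice at 10 µg lay above the highest isotype mouse, while 1 mouse at 2 µg lay inside the isotype range. With avelumab alone the signal was 7.89, 19.2 and 22.4 (replicates 2, 3 and 4). In combination 2 µg it was 87.3, 13.3, 47.7 and 88.3, and in combination 10 µg it was 56.9, 38.1, 161 and 31.0. Every combination mouse lay above every isotype mouse, and 1 of 3 avelumab mice lay inside the isotype range.

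**Figure D1:**
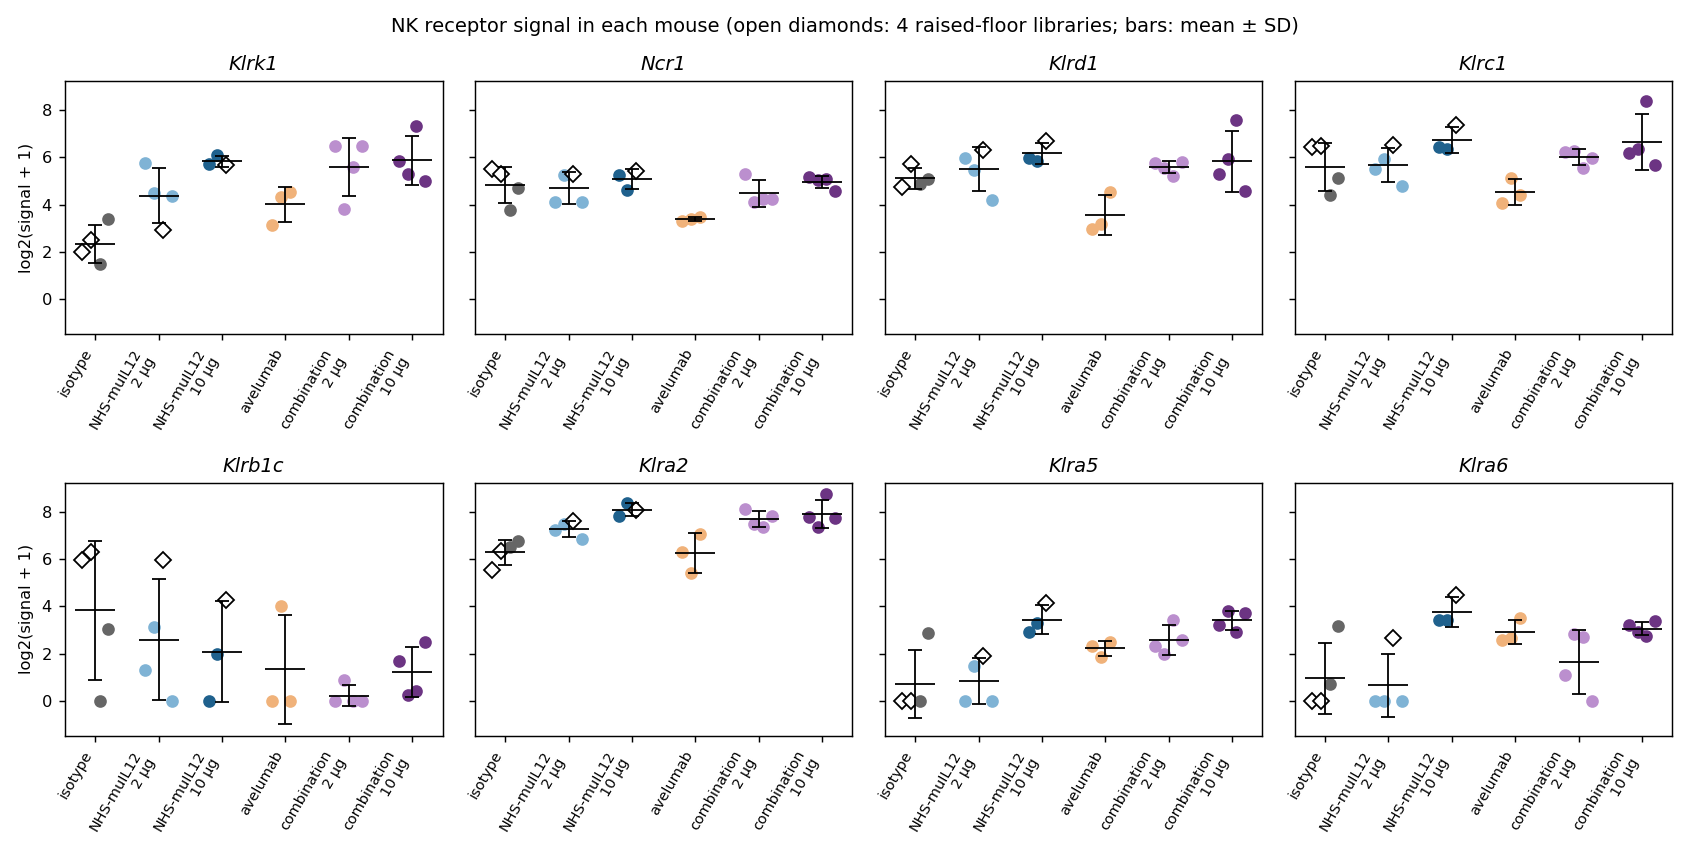
Signal of the 8 receptor genes in each mouse, as log2(signal + 1), in the 6 treatment groups, with bars for mean ± SD on that scale. Open diamonds are the 4 raised-floor libraries. Klrk1 and Klra2 are higher in the combination groups than in isotype, avelumab alone has the lowest Ncr1 and Klrd1, and Klrb1c is highest in the 4 diamonds.

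Mean Klrk1 signal, in rising order, was 4.75 ± 3.35 (SD, n = 4) in isotype, 16.5 ± 7.62 (n = 3) in avelumab, 25.3 ± 19.9 (n = 4) in NHS-muIL12 2 µg, 56.4 ± 10.2 (n = 3) in NHS-muIL12 10 µg, 59.1 ± 35.9 (n = 4) in combination 2 µg and 71.8 ± 60.6 (n = 4) in combination 10 µg. Each group overlapped the next in this order. In the limma fit over all 750 genes, with Benjamini-Hochberg adjustment and a threshold of 0.05, Klrk1 passed against isotype in 3 of 5 groups. Its change on the log2(signal + 1) scale, which understates folds of dim genes, was 3.48 ± 0.72 (SE, adjusted p = 0.00678) with NHS-muIL12 10 µg, an 11.1-fold difference. It was 3.24 ± 0.66 (adjusted p = 0.00757) in combination 2 µg and 3.52 ± 0.66 (adjusted p = 0.0035) in combination 10 µg. The values of 2.04 ± 0.66 with NHS-muIL12 2 µg (adjusted p = 0.324) and 1.66 ± 0.72 with avelumab (adjusted p = 0.715) did not pass. Averaged over both doses and both avelumab arms, any NHS-muIL12 against none gave 2.24 ± 0.43 (adjusted p = 0.00115). None of these 4 calls was lost in any of 22 fits that each left out 1 mouse. Without the 4 raised-floor libraries the changes against isotype were 3.46, 3.15 and 3.42 with adjusted p of 0.154, 0.148 and 0.0647, while any NHS-muIL12 against none gave 2.33 and passed. With a spread estimated from the 2 compared groups alone, the adjusted p was 0.0563 for combination 2 µg and 0.0826 for combination 10 µg.

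Klra2, which encodes Ly49B, rose alongside Klrk1 by a smaller amount. Its signal was 45.7, 79.1, 90.6 and 106 in isotype and 77.0, 41.3 and 134 with avelumab. It was 149, 179, 191 and 113 with NHS-muIL12 2 µg and 227, 331 and 266 with 10 µg. It was 276, 180, 162 and 223 in combination 2 µg and 219, 161, 427 and 210 in combination 10 µg. Every mouse given NHS-muIL12 lay above every isotype mouse, and the avelumab mice spanned the isotype range. The log2 change was 1.81 ± 0.38 with NHS-muIL12 10 µg (adjusted p = 0.00704), 1.41 ± 0.35 in combination 2 µg (adjusted p = 0.0233) and 1.61 ± 0.35 in combination 10 µg (adjusted p = 0.00556). With NHS-muIL12 2 µg it was 1.00 ± 0.35 (adjusted p = 0.375) and with avelumab -0.03 ± 0.38 (adjusted p = 0.993). Any NHS-muIL12 against none gave 1.47 ± 0.23 (adjusted p = 0.000304). That call was kept in every fit without 1 mouse and without the 4 raised-floor libraries, where the change was 1.28. The 3 calls against isotype were lost without those libraries, at 1.48, 1.06 and 1.27 with adjusted p of 0.199, 0.276 and 0.118. With a spread from the compared groups alone the adjusted p was 0.0563 and 0.095 for combination 2 µg and 10 µg. The call in combination 2 µg was lost in 4 of the 22 fits, those without isotype replicate 1 or 2 or combination 2 µg replicate 1 or 4, with an adjusted p of up to 0.0893.

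Some markers of other cells also rose with NHS-muIL12. The summed signal of 9 macrophage markers ran from 5345 to 11613 in isotype, from 13330 to 16621 with NHS-muIL12 10 µg, from 13601 to 16334 in combination 2 µg and from 12038 to 25461 in combination 10 µg. It overlapped isotype with NHS-muIL12 2 µg, at 9555 to 12676, and with avelumab alone, at 5094 to 13971. Of these 9 markers, Cd68 (0.54 ± 0.16, adjusted p = 0.0191), Lyz2 (0.86 ± 0.21, adjusted p = 0.00543) and Msr1 (0.80 ± 0.17, adjusted p = 0.0023) rose with any NHS-muIL12 against none in limma, where 20.7% of all 750 genes rose. The summed signal of 12 T cell markers did not rise in this way. It was 143 to 560 in isotype and 187 to 561 in combination 10 µg, with medians of 377 and 194. Its median was 209 with NHS-muIL12 10 µg, 239 in combination 2 µg, 260 with NHS-muIL12 2 µg and 197 with avelumab alone. Replicates 1 and 2 of isotype are raised-floor libraries, and the part of their dim end in these sums was not tested. Of the 12 markers 1, Cd3g, a chain of the T cell receptor complex, rose with any NHS-muIL12 in limma (1.29 ± 0.40, adjusted p = 0.026). No marker of these lists was at 0 in every library. The part of these cells in the Klrk1 and Klra2 results was not tested.

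Klrd1 and Klrc1, the CD94 and NKG2A chains of 1 receptor, had isotype values of 26.0, 52.3, 28.6 and 33.1 and of 85.0, 87.2, 20.1 and 33.8. With avelumab alone Klrd1 was 6.90, 8.19 and 22.4, all below the lowest isotype mouse, and Klrc1 was 15.8, 34.4 and 20.5. In combination 10 µg Klrd1 was 38.7, 59.2, 189 and 22.5, and Klrc1 was 71.0, 81.3, 335 and 49.9. Replicate 3 of that group was the highest of its group for both chains, and also for Klrk1 and Klra2. In combination 2 µg Klrd1 was 54.0, 46.4, 36.2 and 54.3, and Klrc1 was 73.5, 76.5, 45.9 and 61.9. All 8 combination mice lay above the avelumab mice for Klrc1, and for Klrd1, where the lowest of them at 22.5 lay just above the highest avelumab mouse.

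With NHS-muIL12 alone Klrd1 was 62.7, 43.6, 78.5 and 17.5 at 2 µg and 61.5, 56.6 and 102 at 10 µg. Klrc1 was 44.2, 60.2, 90.0 and 26.7 at 2 µg and 86.4, 81.4 and 164 at 10 µg. Neither gene passed against isotype in any group, with log2 changes of 1.05 ± 0.59 (Klrd1, adjusted p = 0.306) and 1.12 ± 0.60 (Klrc1, adjusted p = 0.281) at NHS-muIL12 10 µg. Both passed for any NHS-muIL12 against none, at 1.43 ± 0.36 (adjusted p = 0.00651) for Klrd1 and 1.19 ± 0.36 (adjusted p = 0.0229) for Klrc1. The Klrd1 call held in every fit without 1 mouse, and the Klrc1 call was lost without isotype replicate 3 (adjusted p = 0.0539) or avelumab replicate 2 (adjusted p = 0.0783). Against avelumab, combination 10 µg raised Klrd1 by 2.26 ± 0.59 (adjusted p = 0.0139) and Klrc1 by 2.10 ± 0.60 (adjusted p = 0.0225), and combination 2 µg raised Klrd1 by 2.01 ± 0.59 (adjusted p = 0.0421).

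Ncr1, the NKp46 gene, stayed in the isotype range in all 4 groups given NHS-muIL12 and was lowest with avelumab alone. Its signal was 44.0, 38.4, 12.8 and 25.5 in isotype and 8.88, 9.57 and 10.2 with avelumab. All 3 avelumab mice lay below the lowest isotype mouse, and their log2 change of -1.43 ± 0.40 did not pass (adjusted p = 0.611, unadjusted p = 0.00245). It was 16.5, 37.6, 38.7 and 16.4 with NHS-muIL12 2 µg and 37.6, 23.6 and 41.6 with 10 µg, all inside the isotype range. It was 38.8, 16.4, 17.8 and 17.7 in combination 2 µg and 34.6, 31.8, 32.5 and 22.5 in combination 10 µg, again inside the isotype range but above every avelumab mouse. Combination 10 µg against avelumab gave 1.56 ± 0.40 (adjusted p = 0.0136). Any NHS-muIL12 against none gave 0.70 ± 0.24 (adjusted p = 0.048), a call that was lost in 15 of 22 fits without 1 mouse, with adjusted p of 0.0546 to 0.107. It was kept only without isotype replicate 1 or 2, NHS-muIL12 2 µg replicate 1 or 4, NHS-muIL12 10 µg replicate 2, combination 2 µg replicate 2 or combination 10 µg replicate 4. In that average the isotype and avelumab groups have equal weight, and Ncr1 in the 2 raised-floor isotype libraries was higher than in the other isotype mice. In limma without the 4 raised-floor libraries any NHS-muIL12 against none gave 0.89 (adjusted p = 0.0304). Against isotype, Ncr1 then changed by 0.69 with NHS-muIL12 10 µg (adjusted p = 0.488) and 0.70 in combination 10 µg (adjusted p = 0.329). With all libraries these changes were 0.28 and 0.13. At 2 µg they were 0.25 without and 0.22 with avelumab, and avelumab alone gave -0.86, none past the threshold.

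Klrb1c, the NK1.1 gene, had little signal outside the 4 raised-floor libraries. It was 62.0, 77.9, 0 and 7.19 in isotype, 1.49, 7.74, 60.5 and 0 with NHS-muIL12 2 µg, 0, 3.00 and 18.2 with 10 µg, and 0, 15.1 and 0 with avelumab. In combination 2 µg it was 0, 0.867, 0 and 0, and in combination 10 µg it was 2.27, 0.184, 0.357 and 4.62. The 4 highest of the 22 values were those of the 4 libraries, a pattern shared by 89 of the 750 tested genes (11.9%), and 8 of 22 values were 0. No comparison passed for Klrb1c. Its log2 change against isotype was -3.60 ± 1.42 in combination 2 µg (adjusted p = 0.11), larger in size than that of Klrk1, and any NHS-muIL12 against none gave -1.05 ± 0.93 (adjusted p = 0.447). In limma without the 4 raised-floor libraries Klrb1c changed by -1.29 in combination 2 µg (adjusted p = 0.652), where Klrk1 changed by 3.15. Any NHS-muIL12 against none then gave -0.44 for Klrb1c (adjusted p = 0.719). In the same 4 libraries Ncr1 was 44.0, 38.4, 38.7 and 41.6, at or near the top of its range, while Klrk1 was low in 3 of them at 3.03, 4.66 and 6.58. The plot of receptor signal against the lower quartile shows the 3 genes side by side, and the part of the dim end in the Ncr1 and Klrb1c values was not tested.

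**Figure D2:**
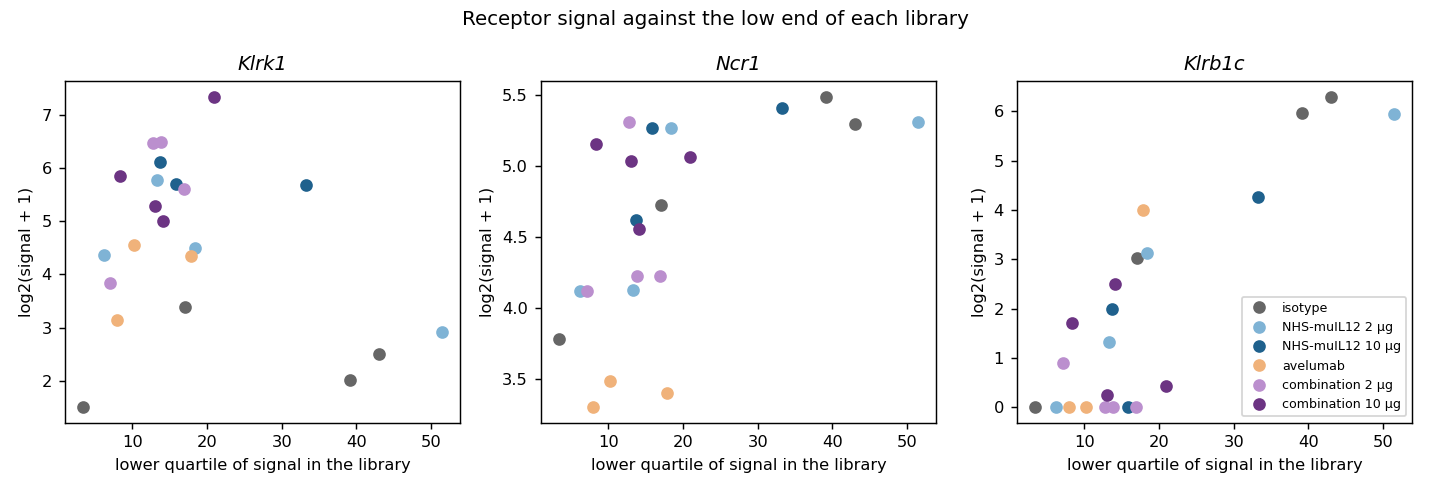
Signal of Klrk1, Ncr1 and Klrb1c, as log2(signal + 1), against the lower quartile of signal in the same library, with 1 point per mouse coloured by group. Klrb1c is highest in the 4 libraries with a lower quartile above 30, where Ncr1 is 38.4 to 44.0 signal, and Klrk1 is low in 3 of these 4.

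Klra5 and Klra6, 2 further Ly49 genes, were dim throughout, with highest values of 16.5 and 21.5. Klra5 was 0, 0.0114, 0 and 6.43 in isotype, 6.54, 8.77 and 16.5 with NHS-muIL12 10 µg, and 8.34, 12.8, 6.61 and 12.2 in combination 10 µg. Both of these groups lay above isotype for Klra5, but their lowest mice exceeded the highest isotype mouse by less than 1 count. Klra6 was 0, 0, 0.625 and 7.95 in isotype, 9.65, 9.60 and 21.5 with NHS-muIL12 10 µg, and 8.34, 6.51, 5.72 and 9.34 in combination 10 µg.

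The log2 change of Klra5 was 2.72 ± 0.64 with NHS-muIL12 10 µg (adjusted p = 0.0124) and 2.69 ± 0.59 in combination 10 µg (adjusted p = 0.0058), and that of Klra6 was 2.80 ± 0.80 with NHS-muIL12 10 µg (adjusted p = 0.0325). At 2 µg without avelumab Klra5 was 0 to 2.73 and Klra6 was 0 to 5.29, and the changes from isotype were 0.11 ± 0.59 and -0.30 ± 0.74. With avelumab alone Klra5 was 2.67 to 4.61 and Klra6 was 4.93 to 10.2, and in combination 2 µg they were 2.94 to 9.89 and 0 to 6.04. Any NHS-muIL12 against none gave 1.10 ± 0.38 for Klra5 (adjusted p = 0.0489) and 0.35 ± 0.49 for Klra6 (adjusted p = 0.658). The Klra5 average was lost in 17 of 22 fits without 1 mouse, with adjusted p of up to 0.12, and kept only without isotype replicate 4, NHS-muIL12 2 µg replicate 1 or 4, NHS-muIL12 10 µg replicate 1 or combination 2 µg replicate 2. Its change fell to 0.56 (adjusted p = 0.394) without the 4 raised-floor libraries. The Klra5 call at NHS-muIL12 10 µg was lost in 3 fits, without isotype replicate 2 or NHS-muIL12 10 µg replicate 2 or 3. The Klra6 call was lost in 6, without isotype replicate 1, 2 or 3 or any of the 3 mice at NHS-muIL12 10 µg, with adjusted p of up to 0.136. That call was also lost in limma without the 4 raised-floor libraries (1.48, adjusted p = 0.416), with median centring (2.55, adjusted p = 0.069) and with quantile normalization (1.78, adjusted p = 0.137). With a spread from the compared groups alone its adjusted p was 0.118.

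Counted over the 8 receptors, NHS-muIL12 10 µg raised the signal of Klrk1, Klra2, Klra5 and Klra6, or 4 of 8, where 10.5% of the 750 genes passed in either direction (10% higher and 0.533% lower). In these counts the signal for Klra5 and Klra6 could include that of relatives, which was not tested. Combination 2 µg raised 2 of 8 (Klrk1 and Klra2) where 9.47% passed (7.73% higher and 1.73% lower), and combination 10 µg raised 3 of 8 (Klrk1, Klra2 and Klra5) where 19.7% passed (17.2% higher and 2.53% lower). For NHS-muIL12 2 µg and for avelumab alone, 0 of 8 and 0% of the 750 genes passed in limma, although 2 and 5 of the 8 had an unadjusted p under 0.05, as did 59 and 38 of the 750 genes. Any NHS-muIL12 against none raised 6 of 8, where 22.7% of genes passed (20.7% higher and 2% lower). The median log2 change of the 8 was 1.14 for any NHS-muIL12, against 0.07 over all tested genes, and -0.54 for avelumab against isotype, against -0.20. Without the 4 raised-floor libraries 0 of 8 passed in limma against isotype at NHS-muIL12 10 µg and in both combinations, as did 0 of the 750 genes. In the same fit 5 of 8 (all of the 6 but Klra5) passed for any NHS-muIL12. The share of the 750 genes that passed with them is not given here. Whether 5 of 8 stands out in that fit therefore cannot be read from this count. With array weights, by which libraries count unequally, 6 of 8 passed for avelumab against isotype, Klra5 and Klra6 higher and Klrb1c, Klrc1, Klrd1 and Ncr1 lower, and so did 98 of the 750 genes. Isotype serves as control in all 5 group comparisons, so these are not independent.

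**Figure D3:**
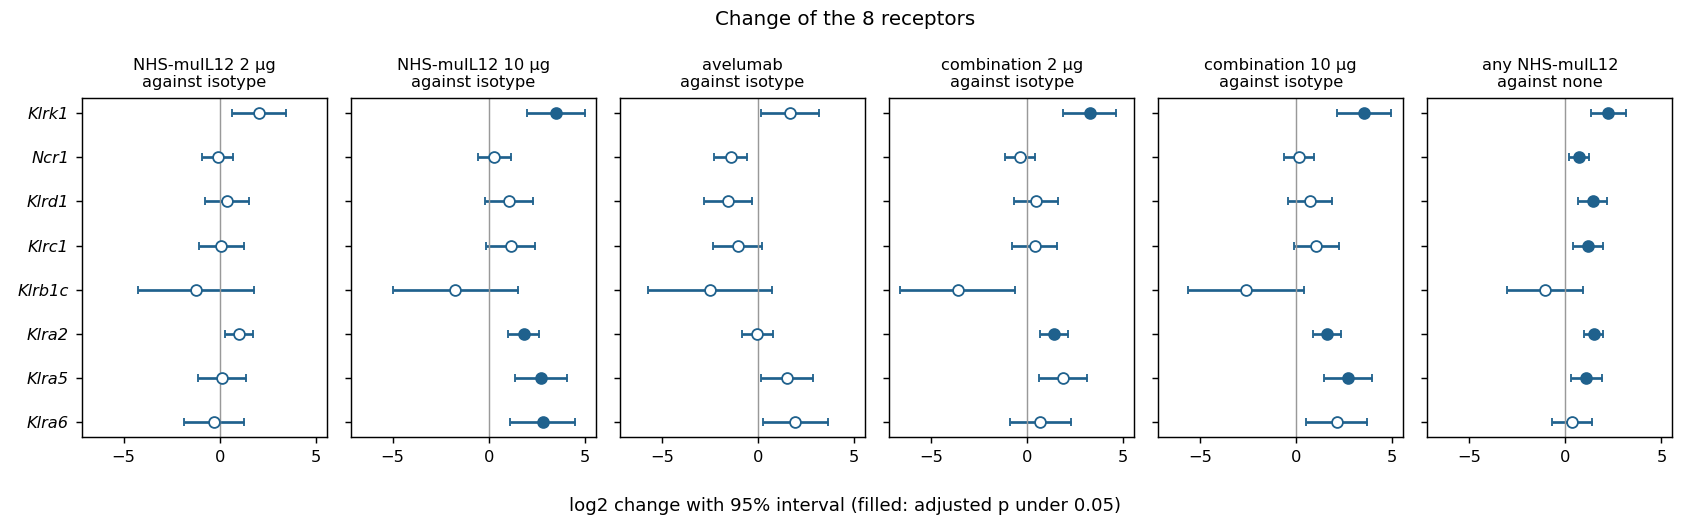
Log2 change of each of the 8 receptor genes from limma, with its 95% interval, for each treated group against isotype and for any NHS-muIL12 against none. Filled points have an adjusted p under 0.05, and Klrk1 is filled in 4 of the 6 panels.

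Groups that did not overlap isotype gave a similar count. All mice lay above all isotype mice for 5 of 8 receptors at NHS-muIL12 10 µg (Klrk1, Klra2, Klra5, Klra6 and Klrd1), where this held for 20% of the 750 genes. It held for 2 of 8 in combination 2 µg (Klrk1 and Klra2) and 12.9% of genes, for 3 of 8 in combination 10 µg (with Klra5) and 16.9% of genes, and for 1 of 8 at NHS-muIL12 2 µg (Klra2) and 5.73% of genes. With avelumab alone all mice lay below isotype for 2 of 8 (Ncr1 and Klrd1), where this held for 3.33% of genes, and above isotype for 0 of 8, where this held for 1.33%.

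When NHS-muIL12 was added to avelumab, the calls fell on a partly different set. A call in 1 gene and not in another does not show a difference, and the sets were not compared by a test. Combination 10 µg against avelumab passed for Klra2, Klrc1, Klrd1 and Ncr1, or 4 of 8, where 16.9% of genes passed (16.5% higher and 0.4% lower), and combination 2 µg passed for Klra2 and Klrd1, or 2 of 8, where 10.8% passed (9.6% higher and 1.2% lower). Klrk1 was among neither, at 1.86 ± 0.72 (adjusted p = 0.0914) for combination 10 µg and 1.58 ± 0.72 (adjusted p = 0.173) for combination 2 µg. The Klra2 change was 1.64 ± 0.38 in the first and 1.44 ± 0.38 in the second. Median centring or quantile normalization ended the calls of Klra2 and Ncr1 for combination 10 µg (adjusted p of 0.0563 to 0.0723) and both calls for combination 2 µg. Median centring alone moved every gene's change by -0.49 for combination 10 µg against avelumab and by -0.31 for any NHS-muIL12 against none, where the Ncr1 call also ended (0.39, adjusted p = 0.165). For combination 10 µg the Klra2 call was lost without avelumab replicate 3, and the Ncr1 call without avelumab replicate 2 or 3. The Klrd1 call was lost without avelumab replicate 2 or 3 or combination 10 µg replicate 3, and the Klrc1 call without avelumab replicate 2 or 4 or combination 10 µg replicate 3. For combination 2 µg the Klra2 call was lost in 4 fits, without avelumab replicate 2 or 3 or combination replicate 1 or 4, and the Klrd1 call in 10, with adjusted p of 0.051 to 0.158. Those 10 were any mouse of combination 2 µg, avelumab replicate 2 or 3, isotype replicate 1, NHS-muIL12 2 µg replicate 2, and NHS-muIL12 10 µg replicate 1 or 2.

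Dose and avelumab gave no call among the receptors. Of the 8, 0 passed for NHS-muIL12 10 µg against 2 µg, where 0% of genes passed and 3 receptors and 103 of the 750 genes had an unadjusted p under 0.05. The values were 1.44 ± 0.72 for Klrk1 (95% interval -0.07 to 2.95), 2.60 ± 0.64 for Klra5 and 3.11 ± 0.80 for Klra6 (adjusted p = 0.105). For combination 10 µg against combination 2 µg 0 of 8 and 0% of genes passed in limma, 0 of the 8 and 35 of the 750 genes had an unadjusted p under 0.05, and Klrk1 differed by 0.28 ± 0.66 (95% interval -1.12 to 1.68). For combination 2 µg against NHS-muIL12 2 µg, 0 of 8 passed where 0.267% of genes did, with 1 receptor and 83 genes under an unadjusted p of 0.05. For combination 10 µg against NHS-muIL12 10 µg, 0 of 8 and 0% of genes passed, with 0 receptors and 35 genes under that p. Klrk1 changed by 1.21 ± 0.66 (95% interval -0.19 to 2.61) and 0.04 ± 0.72 (95% interval -1.47 to 1.56) when avelumab was added at 2 and at 10 µg. Of 16 interaction terms for the 8 genes, 0 passed in limma and 3 had an unadjusted p under 0.05 (1 at 2 µg and 2 at 10 µg, against 37 and 16 of the 750 genes), with Klrk1 at -0.45 ± 0.98 and -1.62 ± 1.02. Averaged over the 3 doses, avelumab changed Klrk1 by 0.97 ± 0.40 and Ncr1 by -0.60 ± 0.23 (adjusted p = 0.252 for each), and 0 of 8 passed, with 4 receptors and 128 of the 750 genes under an unadjusted p of 0.05.

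The change of Klrk1 was then set against that of each other receptor within the same mice. The tested value was the log2 change of Klrk1 minus that of the other gene for any NHS-muIL12 (15 mice) against none (7 mice), as the mean of the arms without and with avelumab, in a two-sided exact permutation test over mice within arms, adjusted over 7 pairs. Klrk1 rose more than Ncr1 by 1.50 (exact p = 0.0126, adjusted p = 0.044), than Klra6 by 1.95 (exact p = 0.0203, adjusted p = 0.0474) and than Klrb1c by 3.22 (exact p = 0.00856, adjusted p = 0.044). Here too the signal for Klra6 could include that of relatives. The difference did not pass for Klra5 (1.18, exact p = 0.054, adjusted p = 0.0945), Klrc1 (1.03, exact p = 0.0718, adjusted p = 0.101), Klra2 (0.74, exact p = 0.0927, adjusted p = 0.108) or Klrd1 (0.79, exact p = 0.138, adjusted p = 0.138). From limma the 95% intervals of these 4 differences were -0.05 to 2.34, -0.04 to 2.13, -0.19 to 1.72 and -0.19 to 1.82, so that Klrk1 is not shown to act like them. With 1 mouse left out the call was kept in 8 of 22 fits for Ncr1, 9 for Klrb1c and 5 for Klra6, and the adjusted p reached 0.106, 0.0707 and 0.106. All 3 calls were kept without NHS-muIL12 2 µg replicate 3, NHS-muIL12 10 µg replicate 3, combination 2 µg replicate 2, or combination 10 µg replicate 2 or 4, each left out in turn.

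The difference was not even across the arms. The change of Klrk1 minus that of Ncr1 was 2.60 without avelumab and 0.41 with it. Against Klrd1 it was 1.99 and -0.41, against Klrc1 2.13 and -0.06, and against Klra2 1.30 and 0.18. For Klrb1c the values were 4.10 and 2.33, for Klra5 1.42 and 0.95, and for Klra6 1.62 and 2.27. Klrk1 was higher in avelumab mice than in most isotype mice, whereas Ncr1 and Klrd1 were lower in all of them. The difference between arms was not tested.

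**Figure D4:**
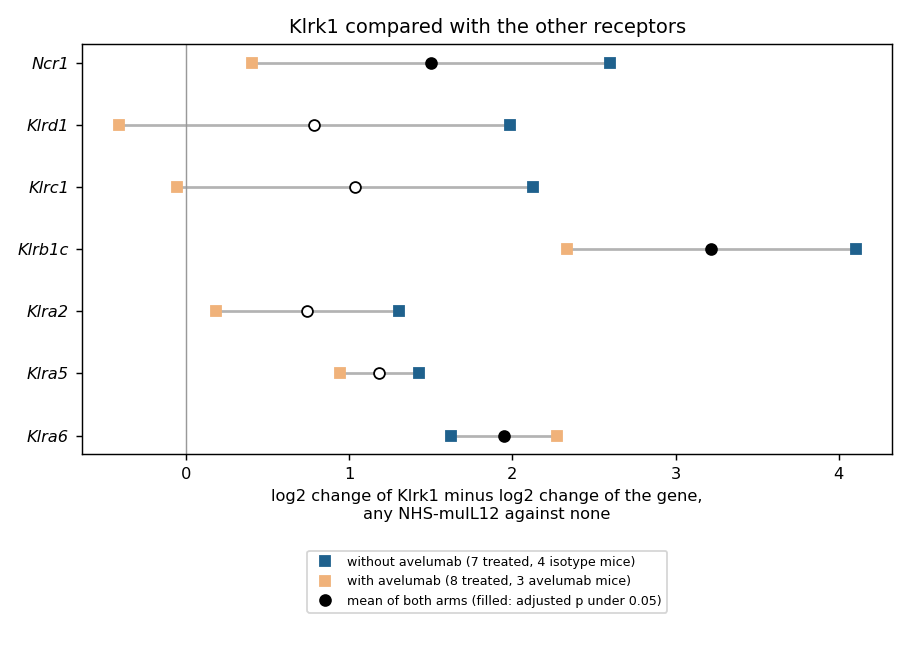
Log2 change of Klrk1 minus that of each other receptor for any NHS-muIL12 against none. Squares are the arms without and with avelumab, circles their mean, filled where the adjusted p is under 0.05. The squares without avelumab lie to the right of those with it for all genes but Klra6.

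In combination 10 µg against isotype alone, with 4 mice each, Klrk1 rose more than Ncr1 by 3.39, Klrd1 by 2.80, Klrc1 by 2.47, Klrb1c by 6.13 and Klra2 by 1.91. Each of these 5 had an exact permutation p of 0.0286, the smallest that 4 against 4 mice allow, and an adjusted p of 0.04. For Klra5 the difference was 0.83 (exact p = 0.429) and for Klra6 it was 1.42 (exact p = 0.171). Without the raised-floor libraries, where 2 isotype mice remain and the exact p cannot go under 0.0667, none of the 5 passed (adjusted p of 0.117 to 0.156), with Klrb1c at 3.72 and Klrc1 at 1.53. With a pseudocount of 10, Klra5 (1.44) and Klra6 (1.68) also passed (exact permutation test, adjusted p = 0.0333) and Klra2 did not (0.74, adjusted p = 0.0571). All 5 calls were lost without isotype replicate 3 or without any 1 mouse of combination 10 µg, with an adjusted p of up to 0.08, and were kept without any other mouse. The mean spread of such a difference between mice of 1 group was 0.98 (SD) for Ncr1 and 0.81 for Klra2.

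Across the 22 mice, Pearson's r of log2 signal with Klrk1 was 0.76 for Klra2, 0.59 for Klra5, 0.47 for Klrd1, 0.46 for Klrc1, 0.28 for Klra6, 0.16 for Ncr1 and -0.46 for Klrb1c. Among 746 genes Klra2 ranked 52nd and Ncr1 324th in likeness to Klrk1. In the 18 libraries left without the raised-floor ones, r was 0.74 for Klra2, 0.76 for Klrc1, 0.64 for Klrd1 and 0.55 for Ncr1, and it was 0.45 for Klra5, 0.065 for Klra6 and -0.11 for Klrb1c. The 5 genes most like Klrk1 were Il10ra (r = 0.89), a chain of the interleukin-10 receptor, H2-Eb1 (0.88) and H2-Ab1 (0.88), which encode class II MHC chains, Psmb10 (0.87), a subunit of the immunoproteasome, and Tap1 (0.86), which carries peptides to class I molecules. All 5 rose with any NHS-muIL12, H2-Eb1 by 3.04 ± 0.37 (adjusted p = 3.12e-05) and Tap1 by 0.72 ± 0.14 (adjusted p = 0.000958). These mice share 6 treatment groups, so that any genes that moved with treatment are alike in this measure.

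The ligands were measured in part. Of 5 listed class I ligands of the Ly49 and CD94-NKG2 receptors 3 were measured, H2-K1, H2-D1 and H2-T23 (Qa-1), and all 3 rose with NHS-muIL12 10 µg, in both combinations and with any NHS-muIL12. Of all 750 genes, 10% rose with NHS-muIL12 10 µg, 7.73% in combination 2 µg, 17.2% in combination 10 µg and 20.7% with any NHS-muIL12. For any NHS-muIL12 the changes were 0.53 ± 0.10 for H2-K1 (adjusted p = 0.00133), 0.54 ± 0.10 for H2-D1 (adjusted p = 0.00101) and 0.74 ± 0.17 for H2-T23 (adjusted p = 0.0034). Of 9 listed NKG2D ligands, H60a and Ulbp1 were measured and neither passed in any comparison against isotype or for any NHS-muIL12, where 0% to 22.7% of all genes passed. Their summed signal was 312 to 440 in isotype and 269 to 335 in combination 10 µg.

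Of 11 measured adaptors and proximal signalling genes, 6 rose with any NHS-muIL12, where 20.7% of all 750 genes rose (Fcer1g, Lyn, Lck, Sh2d1a, Syk and Inpp5d), with a median change of 0.47 over the 11. Sh2d1a, which encodes the SLAM adaptor SAP, rose by 1.82 ± 0.52 (adjusted p = 0.0147) and Fcer1g, the Fc receptor gamma chain that couples to NKp46, by 1.01 ± 0.20 (adjusted p = 0.00142). Hcst, which encodes DAP10, the adaptor through which NKG2D signals, gave -0.12 ± 0.67 (adjusted p = 0.913) and spanned 0.625 to 124 over the 22 mice. None of the 12 other killer cell lectin-like receptors measured, of 25 listed, passed for any NHS-muIL12 in limma, and their median change was 0.01.

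Of 19 other NK cell surface and lineage genes, 7 rose with any NHS-muIL12, where 20.7% of all 750 genes rose, among them Slamf7 (4.11 ± 0.71, adjusted p = 0.00054), Fcgr4 (2.45 ± 0.30, adjusted p = 3.12e-05), Itgal (1.23 ± 0.21, adjusted p = 0.000488) and Fcgr3 (1.02 ± 0.18, adjusted p = 0.000543). Of these, Fcgr3 and Fcgr4 encode Fc gamma receptors that macrophages carry. Of 8 cytotoxic effector genes 1, Tnfsf10 (TRAIL), rose with any NHS-muIL12 by 0.87 ± 0.26 in limma (adjusted p = 0.0214), against 20.7% of all genes. Gzma (granzyme A) passed in combination 10 µg against isotype (1.60 ± 0.49, adjusted p = 0.0284). Of 9 genes for receptors of interleukins 12, 15 and 18 and their signalling, 4 rose with any NHS-muIL12, against the same 20.7% of all genes, Il12rb1, Il12rb2, Il15ra and Il2rg. Of 8 B cell markers none passed for any NHS-muIL12 in limma. In that comparison 2% of all 750 genes fell, with 1 of 7 mast cell and eosinophil markers (Tpsab1) and 1 of 7 neutrophil markers (Mmp9). The log2 change of Mmp9 was -1.41 ± 0.37 (adjusted p = 0.00913). Against isotype, Tpsab1, Cma1 and Mmp9 fell in both combinations, and Ccr3 and Mpo fell in combination 2 µg. Mmp9 also fell with NHS-muIL12 10 µg.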

How the data were processed

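NanoString signal was measured in total RNA of tumours from 22 mice in 6 groups, and 750 of 770 genes were tested. The values deposited by the authors are signal on a linear scale, in which the values of a library were whole steps above a subtracted background and 9.44% were 0. How the background was subtracted and the signal scaled is not given in the sources used here, so no count model was fitted. Values were analysed as log2(signal + 1) with limma 3.58.1 in R 4.3.3, with 1 mean per group, 16 residual degrees of freedom and Benjamini-Hochberg adjustment over 750 genes within each of 15 comparisons, two-sided, at a threshold of 0.05. "Rose" and "fell" are used of genes past it. Exact permutation tests over mice ran in Python 3.11.15, with 54450 arrangements for any NHS-muIL12 against none. The tests were checked on simulated data.

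The receptors and gene lists were chosen with earlier results of these data known, and list genes were named if they passed against isotype or for any NHS-muIL12, up to 4 per list by adjusted p. A few others were named after their values were seen (Hcst, the NKG2D ligands, Syk, Inpp5d, Il12rb2). Gene names were matched to RefSeq tables on GRCm38.p6. Replicate numbers are not stated to pair mice, and no pairing was used. Labels give each sample as a mouse, and error is read from the spread between mice, whose number limits the precision. Alternatives were other pseudocounts, centring, quantile normalization, a filter on dim genes, array weights, smaller fits, a replicate block, and fits without single mice or the 4 raised-floor libraries.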

Additional observations from a re-analysis of the deposited data

Results flagged for a closer look

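Of 32 groups of 4 mice, 8 genes in each of 4 groups, 4 held a mouse whose gap to its nearest neighbour was large against the range of the group. Chance gives such a gap in about 1 in 20 groups of continuous values. That rate does not hold where the other mice are at or near 0, as for Klrb1c, Klra5 and Klra6 below. Ncr1 in combination 2 µg replicate 1 was 38.8, against 16.4 to 17.8 in the other mice of that group. Klrb1c in combination 2 µg replicate 2 was 0.867, against 0 in the other 3 mice, a value of less than 1 count. Klra5 in isotype replicate 4 was 6.43, with the others at 0 to 0.0114. Klra6 in NHS-muIL12 2 µg replicate 3, 1 of the 4 raised-floor libraries, was 5.29, with the others at 0.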

How the results depend on the processing

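Values that follow are numbers of the 8 receptors past the threshold where another setting moved them by over 1.5 times, and the cause of each move was not tested. Array weights gave 2 for NHS-muIL12 2 µg against isotype, 6 for avelumab, 4 for combination 2 µg, 5 for combination 10 µg, 2 for NHS-muIL12 10 µg against 2 µg, 5 for combination 2 µg against avelumab, 1 for combination 2 µg against NHS-muIL12 2 µg and 5 for avelumab averaged over doses. With array weights the calls over all 750 genes in these 8 comparisons, in the same order, were 90, 98, 308, 269, 63, 217, 50 and 136, in place of 0, 0, 71, 148, 0, 81, 2 and 0. A spread from the compared groups alone gave 2 for NHS-muIL12 10 µg and 0 for both combinations, against isotype and against avelumab. Over all 750 genes, combination 2 µg and 10 µg then had 16 and 0 calls against isotype, in place of 71 and 148. Against avelumab they had 0 and 0, in place of 81 and 127. Without the 4 raised-floor libraries there were 0 for NHS-muIL12 10 µg and both combinations against isotype, with 0 genes in place of 79, 71 and 148. The same fit gave 1 for combination 2 µg against avelumab, with 47 genes in place of 81. A mean signal of at least 10 left 2 for NHS-muIL12 10 µg, since Klra5 and Klra6 are dimmer. For combination 2 µg against avelumab, a pseudocount of 10 gave 1 and centring on the median gene or quantile normalization 0, and for combination 10 µg against avelumab both gave 2. In the latter comparison, centring on the median gene left 58 of the 750 genes in place of 127. Quantile normalization gave 1 for combination 2 µg against NHS-muIL12 2 µg and 1 for avelumab averaged over doses, the latter with 2 genes in place of 0. Centring on housekeeping genes or a pseudocount of 0.5 moved none of the 15 numbers by that much.

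Leaving out 1 mouse gave 2 to 4 for NHS-muIL12 10 µg against isotype, 1 to 3 for combination 2 µg, 3 to 4 for combination 10 µg, 0 to 2 for NHS-muIL12 10 µg against 2 µg, 0 to 2 and 1 to 4 for the combinations against avelumab, and 3 to 6 for any NHS-muIL12. The replicate block left 1 receptor in place of 2 for combination 2 µg against avelumab and 5 in place of 6 for any NHS-muIL12. Same-numbered mice of different groups did not deviate together (median r of 0.0065 over 50 pairs, against 0.0185 for other pairs, and 4 of 22 libraries matched best to their own number).

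For Klrk1 against the other receptors with any NHS-muIL12, a pseudocount of 0.5 gave 1.57 for Ncr1, 3.34 for Klrb1c and 2.01 for Klra6, none past the threshold (adjusted p of 0.0534 to 0.0974). Klra5 passed with a pseudocount of 10 (1.11) and without the 4 libraries (1.85). Leaving out 1 mouse gave 1.31 to 1.71 for Ncr1, 0.84 to 1.29 for Klrc1, 2.63 to 3.72 for Klrb1c, 0.52 to 1.04 for Klra2, 0.95 to 1.35 for Klra5 and 1.72 to 2.18 for Klra6. No receptor's call turned direction under any alternative run. Groups of 3 or 4 mice and the 9.44% of values at 0 limit what could be seen in dim genes such as Klra5, Klra6 and Klrb1c.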
